A study of Homo sapiens with 32 samples.

Results

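The 9 genes described here encode molecules that stand on the surface of B cells and that change, or are used as markers, when the cells are activated: CD83, CD69, CD80, CD86, CD40, CD53, CD37, SEMA7A and IL21R. They were taken by name, and each had 1 row in a table of 25066 features measured in 32 RNA-seq libraries, so all 9 of 9 were found. The libraries came from 2 human diffuse large B cell lymphoma lines engineered to carry Cas9, TMD8 and DOHH2. Each line received CSKi, an inhibitor of the kinase CSK, at 500 nM, or its vehicle DMSO, for 1, 3, 6 or 24 h. There were 2 libraries in each of the 16 groups, labelled as biological replicates. Nothing in the labels says that they came from separate cultures, so the p-values measure the spread between these duplicates, which may be technical.

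CSK restrains kinases of the SRC family by phosphorylating them, and LYN, the main one in B cells, works beside the B cell receptor. CD83 and CD69 are early activation antigens. CD80 and CD86 bind CD28 and CTLA4 on T cells, and CD40 receives the T cell signal CD40LG. CD53 and CD37 are tetraspanins, membrane proteins that organise other receptors, SEMA7A is a semaphorin anchored in the membrane by a lipid, and IL21R is the receptor chain that binds IL21 and pairs with IL2RG.

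Library totals ran between 12273442 and 24907030 mapped reads. The 8 B cell identity markers, among them MS4A1 and CD79A, summed to 7841 to 8486 RPM (reads scaled to the library's total, with no scaling for length) in the CSKi libraries of TMD8, against 6578 to 8612 in its DMSO libraries. All 6 markers of activated B type lymphoma were higher in TMD8, with the transcription factor IRF4 at a mean log2 value of 15.0 in TMD8 vehicle and 3.55 in DOHH2 vehicle. Of 6 germinal centre markers 5 were higher in DOHH2, led by MME at 0.36 in TMD8 and 12.9 in DOHH2, while LMO2 went against its label, at 11.1 in TMD8 and 9.46 in DOHH2. T and NK cell markers summed to at most 4.91 RPM in any group. CSK mRNA itself, which an inhibitor of the protein need not change, differed by -0.14 ± 0.03 on the log2 scale at 3 h in TMD8 (SE, n = 2 and 2, limma adjusted p = 0.022), and by -0.16 ± 0.04 at 3 h and -0.21 ± 0.04 at 6 h in DOHH2 (adjusted p = 0.0057 and 0.00050).

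The 4 DOHH2 libraries of 24 h went against their labels. CSKi replicate 2 lay closest to DMSO replicate 1, with an SD of 0.218 over the log2 differences of the tested features, and CSKi replicate 1 lay closest to DMSO replicate 2, at 0.275. The duplicates as labelled stood 0.381 apart under CSKi and 0.328 apart under DMSO, whereas the duplicates of the 14 other groups stood 0.17 to 0.226 apart. These 4 libraries were therefore kept out of the fits for the earlier DOHH2 times and out of the comparisons between lines. Results that change when they are put back are named beside them.

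RefSeq promoter windows, which span 250 bases before to 50 bases after a start site, were at hand for 6 of the 9 genes, 10 windows in all. CD83, CD86, SEMA7A and CD53 have 2 windows each, CD80 and IL21R 1 each. One window each of CD83, CD86 and SEMA7A is shown, those of CD83 and CD86 because they hold kappaB matches and that of SEMA7A because the gene fell nearly as far as CD83 in TMD8, with matches to the kappaB consensus, the EGR motif GCGNGGGCG, the AP-1 motif TGANTCA, the NFAT motif TGGAAA, the ETS motif CCGGAA and the CArG box in capitals, searched on both strands. They lie at chr6:14117522-14117821 on the plus strand (CD83), chr3:122077534-122077833 on the plus strand (CD86) and chr15:74433909-74434208 on the minus strand (SEMA7A) of GRCh38.p14, a later build than that of the counts.
CD83: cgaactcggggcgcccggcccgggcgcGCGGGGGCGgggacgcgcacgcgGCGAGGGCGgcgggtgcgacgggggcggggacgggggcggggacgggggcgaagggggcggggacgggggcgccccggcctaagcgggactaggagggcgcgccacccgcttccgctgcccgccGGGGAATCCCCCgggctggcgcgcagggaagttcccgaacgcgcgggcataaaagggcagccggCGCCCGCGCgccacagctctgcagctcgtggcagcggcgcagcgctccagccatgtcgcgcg
CD86: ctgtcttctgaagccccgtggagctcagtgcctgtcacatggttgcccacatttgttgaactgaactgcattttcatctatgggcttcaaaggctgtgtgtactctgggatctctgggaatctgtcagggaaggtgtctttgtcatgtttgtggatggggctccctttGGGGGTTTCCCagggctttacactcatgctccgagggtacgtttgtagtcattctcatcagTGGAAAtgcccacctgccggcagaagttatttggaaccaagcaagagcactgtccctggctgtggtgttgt
SEMA7A: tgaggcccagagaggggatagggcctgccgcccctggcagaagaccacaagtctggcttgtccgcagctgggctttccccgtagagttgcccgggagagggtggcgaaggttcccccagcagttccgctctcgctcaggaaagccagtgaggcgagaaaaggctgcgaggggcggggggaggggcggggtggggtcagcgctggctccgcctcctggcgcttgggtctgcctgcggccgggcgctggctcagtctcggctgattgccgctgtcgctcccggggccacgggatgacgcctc
The CD83 window held 3 EGR matches and a run of kappaB matches, overlapping on both strands, from 76 to 65 bases before the start site. The CD86 window held overlapping kappaB matches from 82 to 72 bases before the start and 1 NFAT match, and the SEMA7A window shown held none of the 6 motifs. In the windows not shown, CD83 had 3 NFAT matches and SEMA7A had 1, and the other windows, of CD86, CD53, CD80 and IL21R, held none of the 6 motifs. Of 35116 such windows in the table, 5.91% held a kappaB match, 9.43% an EGR match, 7.71% an AP-1 match, 20.7% an NFAT match, 17.2% an ETS match and 1.29% a CArG box. A match is a string of letters and says nothing of whether a factor binds there.

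In vehicle, 8 of the 9 genes were higher in TMD8 and CD69 was higher in DOHH2. Scaled for transcript length, CD37 led in both lines, with 1138 ± 43.3 RPKM (reads per kilobase of transcript, scaled to library size) in TMD8 and 149 ± 14.7 in DOHH2 (SD, n = 6 libraries of 1, 3 and 6 h in each line). CD53, the other tetraspanin, came second at 202 ± 4.48 in TMD8 and 86.2 ± 1.39 in DOHH2. In TMD8 the next places were CD83 at 64.4, CD86 at 54.8, CD40 at 48.3, IL21R at 35.6, SEMA7A at 32.9, CD80 at 15.0 and CD69 at 2.56 on that scale. The ranges of CD83 and CD86, of CD86 and CD40, and of IL21R and SEMA7A overlapped, and the order within each pair differed between libraries. In DOHH2 CD83 came next at 21.2 ± 7.87, in a range overlapping that of CD69 but above it in every library. CD69, at 12.3 ± 5.17, had a mean near those of CD86 at 11.8 ± 1.42 and CD40 at 11.6 ± 0.993. Its spread followed time: CD69 lay above both genes at 1 h and below both at 3 and 6 h. CD80 and IL21R followed at 2.45 and 2.34, with SEMA7A last at 0.119.

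**Figure D1:**
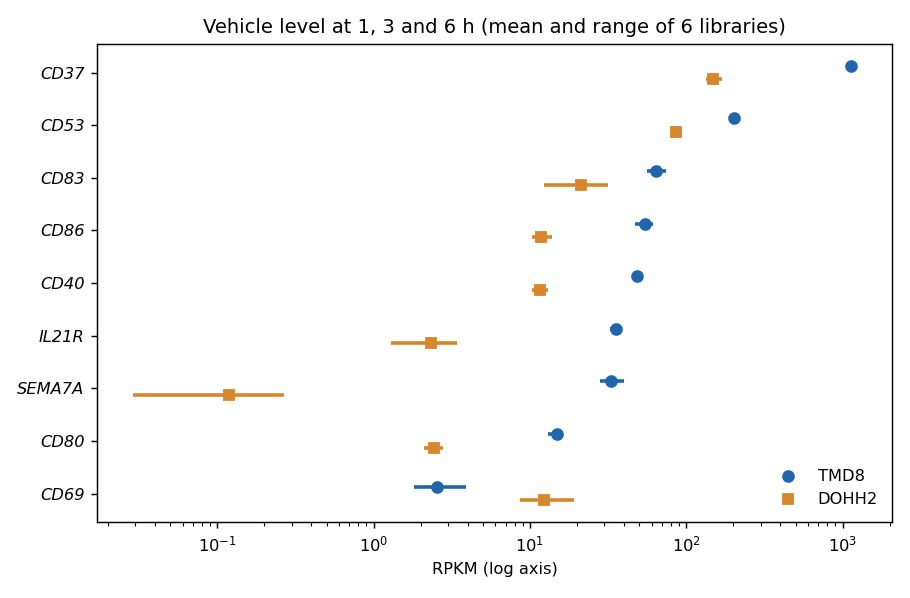
Level of the 9 genes in DMSO libraries of 1, 3 and 6 h, in RPKM on a log axis, as the mean (symbol) and range (line) of 6 libraries for TMD8 (circles) and DOHH2 (squares). CD37 leads in both lines, at 1138 in TMD8 and 149 in DOHH2, and CD69 is the one gene with its square to the right of its circle.

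All 9 genes passed the test of TMD8 against DOHH2 in vehicle, but so did most features: 43.8% of the 12000 tested were called higher in TMD8 and 45.6% lower. SEMA7A was separated most, by 8.53 ± 0.14 log2 units (SE, n = 6 and 6, limma adjusted p = 5.4e-25), although its DOHH2 values rest on 2 to 13 reads per library and a pseudocount of 8 gave 7.42. It entered that fit only through its TMD8 level, so nothing is drawn from its call, which is among the 9. Pooled over those vehicle libraries it had 111 RPM in TMD8 (95% Poisson interval 109 to 113) and 0.378 in DOHH2 (0.275 to 0.508), intervals that cover counting error alone. The other differences were 4.03 for IL21R, 2.95 for CD37, 2.63 for CD80, 2.23 for CD86, 2.08 for CD40, 1.70 for CD83 and 1.24 for CD53. CD69 stood 2.23 ± 0.12 log2 units lower in TMD8. In bulk RNA, fewer cells with a transcript and less of it per cell cannot be told apart.

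At 1 h of CSKi in TMD8, no member was called by limma (0 of 9, with 2 at an unadjusted p under 0.05; 0.05% of all features were called in either direction). CD69 had log2 values of 6.24 and 6.26 in CSKi libraries, against 7.41 and 7.50 in DMSO libraries. The duplicates lay close and the groups did not overlap, yet the difference of -1.20 ± 0.27 (SE) had a limma adjusted p of 0.21. There were 38 reads in each CSKi library and 97 and 103 reads in the DMSO libraries. The SE is shared by all TMD8 groups, among them the 24 h CSKi duplicates at 5.24 and 6.35. This CD69 difference passed in 3 of the other settings: limma-voom on recovered reads, the 4 libraries alone, and a fit without the 24 h libraries (adjusted p between 0.0027 and 0.022). CD83 differed by -0.14 ± 0.05 (adjusted p = 0.99), and the other 7 members by no more than 0.062 in size.

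At 3 h of CSKi in TMD8, 6 of the 9 members fell and 2 rose. The background was 3.26% of features called lower and 1.48% called higher, and the median difference was -0.43 over the 9 members and 0.01 over all tested features. The early activation antigens led. CD83 had 10.71 and 10.84 log2 normalised reads in CSKi libraries, against 12.10 and 12.07 in DMSO libraries, a difference of -1.31 ± 0.05 (SE, limma adjusted p = 3.7e-15). CD69 had 4.25 and 4.43 in CSKi libraries, against 6.36 and 6.49 in DMSO libraries, a difference of -2.09 ± 0.27 (adjusted p = 9.9e-06) that rests on 12 and 14 reads, against 51 and 47. For both genes every CSKi library lay below every DMSO library by more than 1 log2 unit.

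SEMA7A, the membrane semaphorin, fell almost as far as CD83. It had 10.60 and 10.53 in CSKi libraries, against 11.73 and 11.82 in DMSO libraries, a difference of -1.22 ± 0.05 (SE, limma adjusted p = 8.6e-15). IL21R had 11.60 and 11.66 in CSKi libraries, against 12.27 and 12.29 in DMSO libraries, a difference of -0.65 ± 0.04 (adjusted p = 3.6e-11). CD53 fell by 0.43 ± 0.04 and CD40 by 0.25 ± 0.05 log2 units. Ranked by p over the 12000 features, CD83 was 3rd, SEMA7A 4th and IL21R 10th.

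The B7 ligands of CD28 moved the other way. CD80 had 10.36 and 10.39 in CSKi libraries, against 10.08 and 9.90 in DMSO libraries, a difference of 0.38 ± 0.07 (SE, limma adjusted p = 0.0010), and CD86 had 11.25 and 11.24, against 11.07 and 11.06, a difference of 0.19 ± 0.05 (adjusted p = 0.028). Both rises were small beside the falls of CD83, CD69 and SEMA7A, but the rise of CD80 was larger in size than the fall of CD40. The CD86 call was lost when any 1 of its 4 libraries was left out (adjusted p 0.15 to 0.17), and the CD80 call was lost without DMSO replicate 2 (0.066). CD37 differed by 0.10 ± 0.04 and was not called (adjusted p = 0.19). It was called higher in 2 of 13 other settings, the 4 libraries alone and a fit without the 24 h libraries (lowest adjusted p 0.0012).

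**Figure D2:**
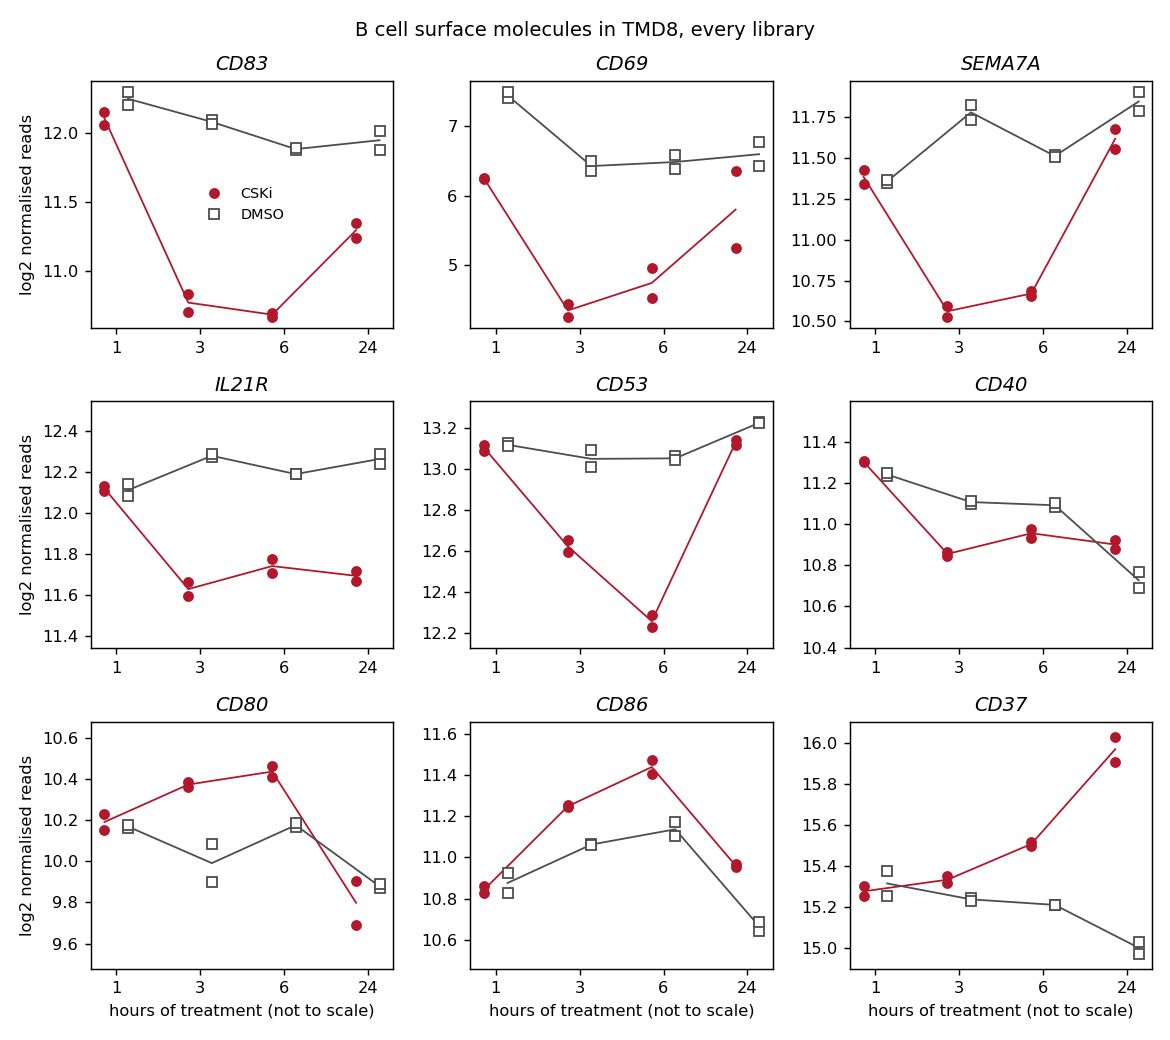
Log2 normalised reads of the 9 genes in every TMD8 library at 1, 3, 6 and 24 h, with CSKi (filled circles) left of DMSO (open squares) and lines through the means of the duplicates; the vertical scale differs between panels. CD83, SEMA7A, IL21R and CD53 part from vehicle between 1 and 3 h, CD69 lies below vehicle already at 1 h, where the difference was not called, and CD37 parts upward by 24 h, where its CSKi libraries reach 16.03 and 15.91.

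At 6 h the 5 largest falls were still called. CD83 stood at 10.70 and 10.67 in CSKi libraries, against 11.88 and 11.89 in DMSO libraries (-1.20 ± 0.05, SE), and CD69 at 4.52 and 4.95, against 6.59 and 6.38 (-1.75 ± 0.27). CD53 had its deepest point here, with 12.29 and 12.23 in CSKi libraries, against 13.06 and 13.04 in DMSO libraries, a difference of -0.79 ± 0.04 (limma adjusted p = 4.5e-14). SEMA7A differed by -0.84 ± 0.05 and IL21R by -0.45 ± 0.04, while CD40, at -0.14 ± 0.05, was not called (adjusted p = 0.065). CD40 was called lower in 5 of 13 other settings, among them limma-voom and median centring (lowest adjusted p 0.035). In all, 5 of 9 members were called lower, beside 6.98% of all features, and 3 of 9 higher, beside 5.67%.

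Those called higher at 6 h were CD86, CD37 and CD80. CD86 had 11.47 and 11.41 in CSKi libraries, against 11.10 and 11.17 in DMSO libraries (0.30 ± 0.05 SE, limma adjusted p = 0.00011), and CD37 had 15.52 and 15.50, against 15.21 and 15.21 (0.30 ± 0.04, adjusted p = 4.0e-06). CD80 differed by 0.26 ± 0.07, a call that was lost when any 1 of its 4 libraries was left out (adjusted p 0.052 to 0.13). For all 3 the CSKi and DMSO libraries did not overlap.

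By 24 h the 9 genes had gone separate ways. CD37 had 16.03 and 15.91 log2 normalised reads in CSKi libraries, against 15.03 and 14.97 in DMSO libraries, a difference of 0.97 ± 0.04 (SE, limma adjusted p = 6.3e-16) and the 6th smallest p of 12000. CD83 remained lower, with 11.24 and 11.35 in CSKi libraries, against 11.88 and 12.02 in DMSO libraries (-0.65 ± 0.05, adjusted p = 2.7e-10). IL21R also remained lower, with 11.72 and 11.67, against 12.24 and 12.29 (-0.57 ± 0.04, adjusted p = 3.1e-11). At this time 26.2% of all features were called lower and 27.9% higher, so the member counts of 5 lower and 3 higher among 9 say less than at 3 h.

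The other differences at 24 h were smaller. SEMA7A was lower by 0.23 ± 0.05, CD86 higher by 0.30 ± 0.05 and CD40, which had been lower at 3 h, higher by 0.17 ± 0.05 log2 units. CD53 had returned to within 0.10 ± 0.04 of vehicle, a fall whose call was lost without either DMSO library or without CSKi replicate 1 (adjusted p up to 0.11), and the CD40 call was lost without DMSO replicate 2 (0.071). CD80, at -0.08 ± 0.07, was not called (adjusted p = 0.36), though it was lower without CSKi replicate 2 (-0.19, adjusted p = 0.038). CD69 had 5.24 and 6.35 in CSKi libraries, against 6.42 and 6.77 in DMSO libraries, from 19 and 41 reads, against 45 and 83. Its difference of -0.80 ± 0.27 (adjusted p = 0.016) shrank to -0.25 without CSKi replicate 1, became -1.36 without CSKi replicate 2, and was not called without DMSO replicate 2. With all 32 libraries in 1 fit, which takes in the 4 DOHH2 libraries of 24 h, the calls lost in TMD8 were CD80, CD86 and CD40 at 3 h, CD80, CD86, SEMA7A and IL21R at 6 h, and CD86, CD40, CD53 and SEMA7A at 24 h (adjusted p 0.057 to 0.79).

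Tested across times, the response of all 9 members changed in TMD8, beside 39.4% of all features (limma F test, 16 libraries). Between 6 and 24 h the falls of CD53, SEMA7A and CD83 shrank and the rise of CD37 grew. Taken with its sign, the response rose by 0.70 ± 0.05 for CD53, 0.67 ± 0.05 for CD37 and 0.61 ± 0.08 for SEMA7A (SE, log2 units). It also rose by 0.55 ± 0.08 for CD83 and 0.31 ± 0.07 for CD40. It dropped by 0.34 ± 0.10 for CD80, a call lost without CSKi replicate 1 of 6 h or of 24 h. Those 6 members were called, beside 29.6% of all features. With all 32 libraries in 1 fit the calls of SEMA7A, CD40 and CD80 were lost (limma adjusted p 0.095 to 0.35). The F test also called fewer members in that fit, as given below. CD69, CD86 and IL21R were not called, at 0.95 ± 0.39, -0.01 ± 0.07 and -0.12 ± 0.06, and CD69 was called without CSKi replicate 1 of 24 h (adjusted p = 0.0019).

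Vehicle itself was not flat. All 9 members changed with time in TMD8 vehicle, beside 58.4% of all features, and 6 of the 8 tested did in DOHH2 vehicle, beside 52.9%, the exceptions being CD80 and CD53. The TMD8 count was smaller with all 32 libraries in 1 fit, as given below. CD69 was lower at 3 h than at 1 h by 1.02 ± 0.27 log2 units in TMD8 vehicle and by 1.10 ± 0.07 in DOHH2 vehicle (SE). CD83 of DOHH2 vehicle was lower at 6 h than at 1 h by 1.30 ± 0.08, and IL21R by 0.95 ± 0.14. Each treatment difference here is against vehicle of the same time.

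**Figure D3:**
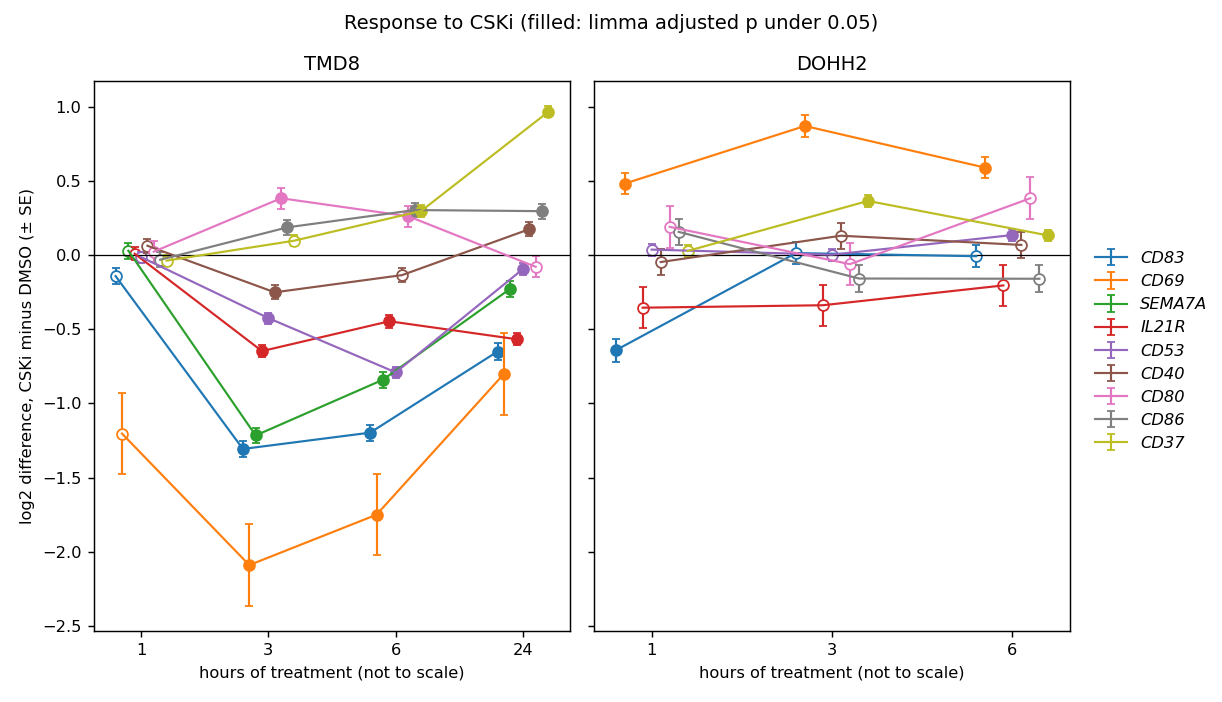
Log2 difference of CSKi minus DMSO (± SE of the limma fit, 2 libraries an arm) for each gene at each time in TMD8 (left, 1 to 24 h) and DOHH2 (right, 1 to 6 h); filled symbols passed a limma adjusted p of 0.05. The CD69 line runs below 0 in TMD8, at -2.09 at 3 h, and above 0 in DOHH2, at 0.87; SEMA7A was too low to test in DOHH2.

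In DOHH2 the early antigens behaved differently from each other. At 1 h CD83 had 10.23 and 10.42 log2 normalised reads in CSKi libraries, against 10.88 and 11.06 in DMSO libraries, a difference of -0.64 ± 0.08 (SE, limma adjusted p = 2.3e-06). At 3 h it had 10.41 and 10.56, against 10.37 and 10.57, and at 6 h 9.62 and 9.71, against 9.70 and 9.65. The groups were apart at 1 h and overlapped at 3 and 6 h, where the differences were 0.01 ± 0.08 and -0.01 ± 0.08.

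CD69 was higher under CSKi at all 3 times in DOHH2. It had 10.23 and 10.27 in CSKi libraries, against 9.77 and 9.76 in DMSO libraries, at 1 h, and 9.55 and 9.52, against 8.60 and 8.72, at 3 h. At 6 h it had 9.23 and 9.21, against 8.67 and 8.59. No CSKi library fell within the DMSO range at any of these times, and each value rests on 289 to 943 reads. The differences were 0.48 ± 0.07, 0.87 ± 0.07 and 0.59 ± 0.07 (SE, limma adjusted p = 0.00013, 2.5e-09 and 1.2e-06). With the 4 DOHH2 libraries of 24 h in the fit, whose duplicates stand far apart, the same differences were not called (adjusted p up to 0.965, 0.103 and 0.347).

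CD37 was the other member called in DOHH2 at 3 h, with 12.52 and 12.53 in CSKi libraries, against 12.16 and 12.15 in DMSO libraries, a difference of 0.36 ± 0.04 (SE, limma adjusted p = 2.8e-07). At 6 h it stood higher by 0.13 ± 0.04 and CD53 higher by 0.13 ± 0.04, small differences that were not called with the 24 h libraries in the fit (adjusted p up to 0.46 and 0.30). The CD53 call was also lost without any 1 of its 4 libraries, and that of CD37 without CSKi replicate 2 or DMSO replicate 1. CD80, CD86, CD40 and IL21R passed at none of the 3 times. CD80 at 6 h had 7.92 and 7.74 in CSKi libraries, against 7.27 and 7.63 in DMSO libraries (0.38 ± 0.14, adjusted p = 0.074), and it was called by limma-voom (0.044) and without DMSO replicate 2 (0.032). IL21R at 3 h had 8.36 and 8.41 in CSKi libraries, against 8.65 and 8.80 in DMSO libraries (-0.34 ± 0.14, adjusted p = 0.11), and it was called there by limma-voom and by the fit of those 4 libraries (adjusted p from 0.019).

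Of the 8 members tested in DOHH2, 1 was called lower and 1 higher at 1 h, beside 1.23% and 0.825% of all features. At 3 h 2 were called higher and 0 lower, beside 7.28% and 7.27%, and 3 had an unadjusted p under 0.05. At 6 h 3 were called higher and 0 lower, beside 6.96% and 6.67%, and 4 had an unadjusted p under 0.05. SEMA7A was below the 12000 features tested there, with 1 to 4 reads in each CSKi library of 1 to 6 h and 2 to 13 reads in each DMSO library. Pooled over 6 libraries an arm, it had 17 reads under CSKi, or 0.148 RPM (95% Poisson interval 0.086 to 0.236), and 44 under DMSO, or 0.378 RPM (0.275 to 0.508). The gap came from 1 and 3 h, as at 6 h it had 3 and 3 reads under CSKi, against 2 and 2 under DMSO. These intervals cover counting error alone, not the spread between libraries or times, and the difference was not tested.

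At 24 h in DOHH2, as labelled, 0 of 8 members and 0% of all features were called by limma, with 0 members at an unadjusted p under 0.05, and limma-voom also called 0 members. CD69 had 8.20 and 9.04 in CSKi libraries, against 8.98 and 7.97 in DMSO libraries, and CD86 had 9.68 and 8.88, against 8.77 and 9.52. For both genes CSKi replicate 2 sat beside DMSO replicate 1, and CSKi replicate 1 beside DMSO replicate 2. CD80, CD40, CD53 and IL21R were arranged in the same way. CD83 was unclear, with CSKi replicate 2 at 10.05 between DMSO libraries at 10.14 and 9.97. CD37 went the other way: CSKi replicates 1 and 2, at 12.10 and 12.32, lay nearest the same-numbered DMSO replicates, at 12.20 and 12.37. SEMA7A had no read in either CSKi library and 1 and 2 reads in the DMSO libraries.

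**Figure D4:**
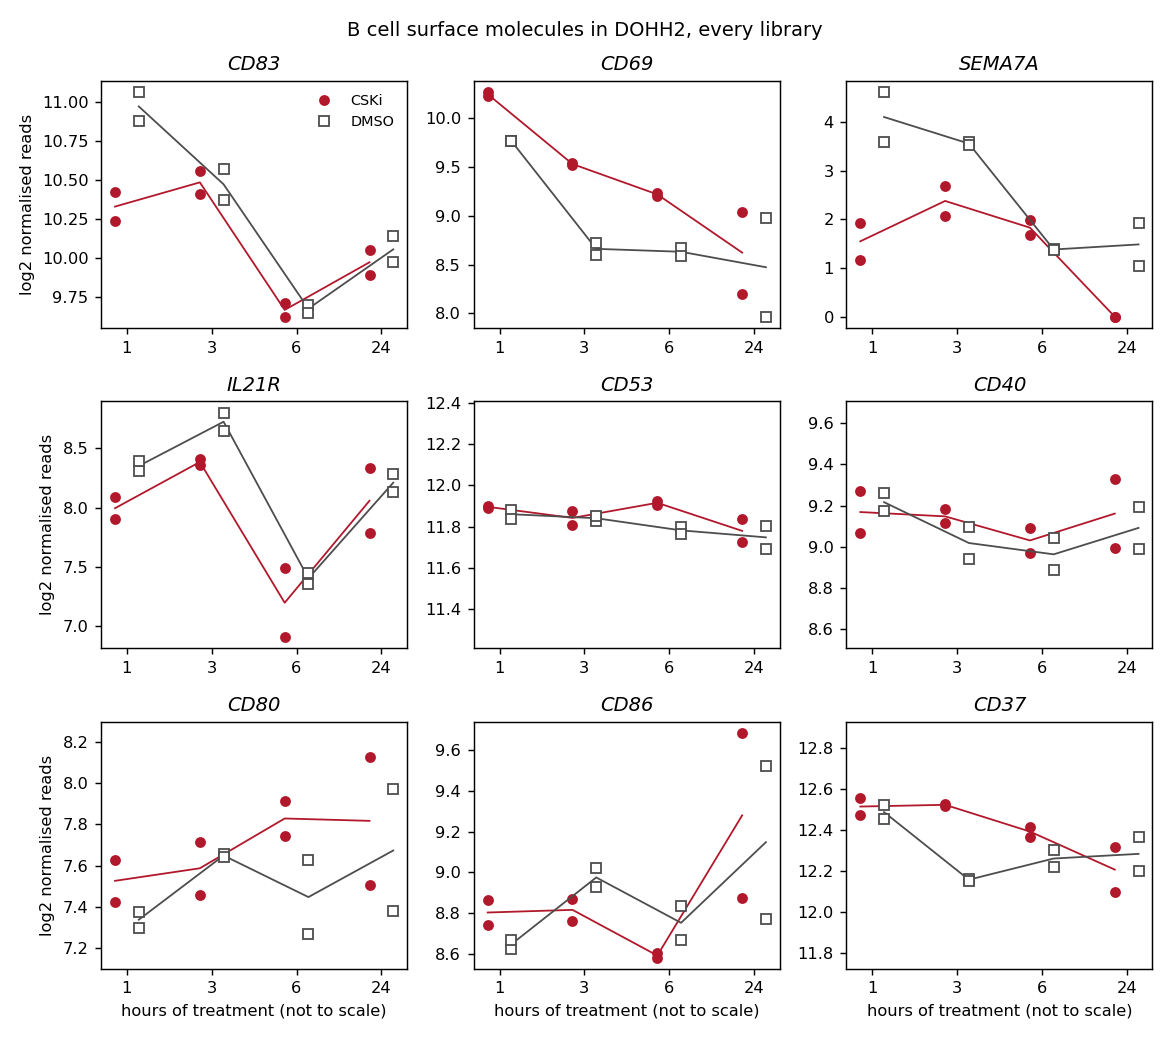
Log2 normalised reads of the 9 genes in every DOHH2 library at 1, 3, 6 and 24 h, with CSKi (filled circles) left of DMSO (open squares) and lines through the means of the duplicates; the vertical scale differs between panels. CD69 is higher under CSKi at 1, 3 and 6 h, and at 24 h its duplicates split, 8.20 and 9.04 under CSKi and 8.98 and 7.97 under DMSO.

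The difference between the lines was tested directly, as the TMD8 response minus the DOHH2 response. CD69 differed at every time tested, by -1.68 ± 0.31 at 1 h, -2.96 ± 0.31 at 3 h and -2.34 ± 0.31 at 6 h (SE, limma adjusted p = 0.0059, 1.5e-06 and 1.4e-05). CD83 differed by 0.50 ± 0.11 at 1 h, where it had fallen in DOHH2, and by -1.32 ± 0.11 at 3 h and -1.19 ± 0.11 at 6 h, where it had fallen in TMD8 (adjusted p = 0.028, 3.9e-08 and 6.1e-08). CD53 differed by -0.43 ± 0.05 at 3 h and by -0.93 ± 0.05 at 6 h, where its p was the smallest of the 12000 features (adjusted p = 1.6e-11).

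The line difference of CD86 was 0.35 ± 0.09 at 3 h and 0.46 ± 0.09 at 6 h (SE). Its responses were 0.19 and 0.30 in TMD8, against -0.16 at both times in DOHH2, where neither was called. The differences of CD40 and CD37 at 3 h were -0.38 ± 0.09 and -0.27 ± 0.06. SEMA7A gave 2.59 ± 0.34 at 1 h and -1.29 ± 0.34 at 6 h, values set by the few DOHH2 reads given above. The gene was too low to test in DOHH2 alone and entered this fit only through its TMD8 level, so nothing is drawn from these calls. With a pseudocount of 8 the 1 h value was 1.25 (still called). Over the 9 members 3, 6 and 5 were called at 1, 3 and 6 h, with SEMA7A among those of 1 and 6 h, beside 0.45%, 4.82% and 5.98% of all features. The 1 h CD83 call was lost without 4 of the 8 libraries in turn (adjusted p up to 0.25), the 3 h calls of CD86 and CD40 without 6 of 8, and the 6 h SEMA7A call without 7 of 8. With the DOHH2 24 h libraries in the fit, the calls lost were CD83 and CD69 at 1 h, CD86, CD40 and CD37 at 3 h, and CD86 and SEMA7A at 6 h. IL21R, which was lower in TMD8 at 3 and 6 h, did not pass the test of the difference (-0.31 ± 0.15, adjusted p = 0.30, and -0.24 ± 0.15, adjusted p = 0.48). Nor did CD80, called higher in TMD8 at 3 and 6 h (0.44 ± 0.15, adjusted p = 0.11, and -0.12 ± 0.15, adjusted p = 0.80). These results depended on single libraries. Leaving out 1 at a time, the 6 h IL21R difference ran from -0.53, without DOHH2 CSKi replicate 1, to 0.05. The 3 h CD80 difference ran from 0.315 to 0.573, the latter without DOHH2 CSKi replicate 2.

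Genes related to the members by role were called at 3 h in TMD8 as follows, beside 3.26% lower and 1.48% higher of all features. Of 12 tested of 16 other activation antigens, 1 was called, the chemokine receptor CCR7, higher by 0.52 ± 0.06 log2 units (SE, limma adjusted p = 5.1e-07). Of 11 tested of 15 costimulatory and checkpoint ligands, 1 was called, ICOSLG, the ligand of ICOS, lower by 0.65 ± 0.18 (adjusted p = 0.040). Among 13 tested of 14 other tetraspanins, TSPAN14 was higher by 0.33 ± 0.07 and TSPAN33 lower by 0.23 ± 0.06. Of 12 tested of 15 partners and kin of IL21R, the IL4 receptor chain IL4R was lower by 0.25 ± 0.07. Of 15 tested of 16 genes of CD40 signalling, NFKB2 was lower by 0.17 ± 0.04 and the deubiquitinase TNFAIP3 lower by 0.16 ± 0.04, and of 7 tested of 12 listed binding partners, none was called.

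At 24 h in TMD8 the same lists held more calls, beside the 26.2% lower and 27.9% higher of all features. The activation antigens had 5 higher and 3 lower of 12, with CCR7 higher by 1.34 ± 0.06 (SE) and the transferrin receptor TFRC lower by 0.84 ± 0.04 log2 units. The ligands had 7 higher and 2 lower of 11, with the SLAM family receptor CD84 higher by 0.94 ± 0.09 and CD274, the ligand of PD-1, lower by 0.53 ± 0.08. The tetraspanins had 5 higher and 3 lower of 13, with CD82 at 0.87 ± 0.05 and CD81 at 0.65 ± 0.04, beside the 0.97 of CD37. The IL21R list had 5 higher and 5 lower of 12, with STAT3, which IL21R signals through, lower by 0.96 ± 0.04 and IL10RA higher by 0.56 ± 0.04. The CD40 list had 7 higher and 3 lower of 15, with RELB at 0.37 ± 0.04 and IKBKB at 0.42 ± 0.05. The binding partners had 4 higher and 2 lower of 7, with CD22 at 0.42 ± 0.04 and S1PR1, the receptor that CD69 holds inside the cell, at 0.55 ± 0.05.

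Markers used to check the cells also moved in TMD8. Of 8 B cell identity markers 7 were called higher at 24 h, when CD37 and 27.9% of all features were, with a list median of 0.35, and CD79B and CD79A, the signalling chains of the B cell receptor, stood at 0.89 ± 0.04 and 0.46 ± 0.04 (SE). Of the 6 activated B markers 4 were lower at 24 h, beside 26.2% of all features, BATF by 1.09 ± 0.06 and IRF4 by 0.52 ± 0.03, and 1 was higher, SH3BP5, named after its value was seen, by 0.12 ± 0.03. Already at 3 h 2 of the 6 were lower, beside 3.26% of all features. At 6 h 4 were lower, beside 6.98%, with a list median of -0.18. Of 11 myeloid and dendritic markers 2 could be tested, and CD1C was lower by 0.55 ± 0.11 at 3 h, 1.07 ± 0.11 at 6 h and 0.93 ± 0.11 at 24 h, whereas ITGAM was higher by 0.74 ± 0.20 at 24 h. That list summed to 9.93 to 24.8 RPM in CSKi libraries, against 15.7 to 23.9 in DMSO libraries, with FCGR3A at 0 in all CSKi libraries and S100A8 and S100A9 at 0 in all DMSO libraries of TMD8. The 8 fibroblast and epithelial markers summed to 160 to 185 RPM in CSKi libraries, against 124 to 164 in DMSO libraries, with KRT18 at 0 in both, and COL1A1 was higher by 1.55 ± 0.10 at 24 h. Their part in the member differences was not tested.

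Across the 16 TMD8 libraries, which share their times and treatments, the features whose log2 values most resembled each member were listed as a description. CD83 and CD69 had the same nearest feature, the immediate early factor EGR1, at Pearson r = 0.95 and 0.96, and EGR2 was second for CD69 at 0.95. For CD53 they were PTPN6, the phosphatase SHP-1, at 0.98 and PIP4K2A at 0.98, and for CD37 NUMA1 and CECR1, both at 0.98. For CD40 they were PRDM1, a factor of plasma cell differentiation, at 0.95 and TMBIM6 at 0.91, and for SEMA7A the innate receptors CD180 and TLR4, both at 0.93. IL21R was nearest to TRAFD1 at 0.95 and PLK3 at 0.94, CD86 to RNF185 at 0.96 and FBXO10 at 0.95, and CD80 to HLCS and LRRFIP2, both at 0.90.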

How the data were processed

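RNA from 32 libraries was made into TruSeq stranded mRNA libraries and read as paired ends, per the labels' protocols. The submitters' processing notes name HTSeq and hg19, while aligner, versions and the strand setting of the counting were not given in the sources used here. Log2 values fill the deposited table: each is the base-2 logarithm of reads multiplied by 1 factor per library, with 0 for no read; the authors' first row, total mapped reads, is no gene and was left out of the tests. Because that row breaks a log2 range the table's unit was recorded as other. Steps between low values gave whole reads back for 96.5% to 100% of values up to 300 reads, within 0.1 of a read.

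Differences were fitted with limma 3.58.1 in R 4.3.3 (eBayes with a mean-variance trend, two-sided) on the deposited log2 values. Each fit used the 12000 features with the highest mean, with Benjamini-Hochberg adjustment over all of them, and a feature was called at an adjusted p under 0.05. TMD8 was fitted on its 16 libraries, DOHH2 on the 12 of 1, 3 and 6 h, and comparisons between lines on 28. Levels between genes used recovered reads, total mapped reads and the GENCODE length of the accession the table names. Motifs were searched with Python 3.11.15, and figures drawn with matplotlib 3.10.9. The fit was tested on simulated data.

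All 9 members were followed in every comparison, though not each is given with its value. From each of 12 other lists, up to 3 genes with the smallest p at 3 h and up to 2 at 24 h in TMD8 are named among those called, except 1 that is not reported here. Members and lists were chosen with earlier results of these data known. Alternatives covered scaling, filters, pseudocount, variance model, samples in the fit, the replicate block and leaving out each library. Samples with the same replicate number did not deviate together at every time, with correlations of -0.005 to 0.166 in TMD8 and -0.476 to 0.050 in DOHH2, so the numbers were not taken to pair them.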

Additional observations from a re-analysis of the deposited data

Results flagged for a closer look

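Effects that differed between groups by a test of the difference itself (limma, adjusted p under 0.05) are given here, with values in log2 units. As the TMD8 response minus the DOHH2 response at 1 h, CD83 gave 0.50, CD69 gave -1.68 and SEMA7A gave 2.59. At 3 h CD83 gave -1.32, CD69 -2.96, CD53 -0.43, CD40 -0.38 and CD37 -0.27, and CD86 gave 0.35. At 6 h CD83 gave -1.19, CD69 -2.34, CD53 -0.93 and SEMA7A -1.29, and CD86 gave 0.46. As the TMD8 response at 24 h minus that at 6 h, CD53 gave 0.70, CD37 0.67, SEMA7A 0.61, CD83 0.55, CD40 0.31 and CD80 -0.34. The SEMA7A values between lines rest on 1 to 13 reads per DOHH2 library, and the gene entered those fits only through its TMD8 level.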

How the results depend on the processing

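No member difference that was called reversed under any alternative, and over all alternatives 2122 member results kept their side of the threshold (uncalled ones near 0 could change sign), 141 were no longer called and 20 became called. Counts of members called moved as follows. Except for the last change, which came from the filter, the cause was not tested. Requiring a change of at least 1.5-fold left 4, 4 and 3 members at 3, 6 and 24 h in TMD8, 1 at each of 1, 3 and 6 h in DOHH2, 2 in the line difference at 3 h and 3 in the TMD8 response of 24 minus 6 h. With all 32 libraries in 1 fit the counts were 5, 4 and 4 at 3, 6 and 24 h in TMD8, 0 at 6 h in DOHH2, 1, 3 and 3 in the line differences at 1, 3 and 6 h, 5 for TMD8 vehicle over time, 5 for the TMD8 response over time and 3 for 24 minus 6 h. With the DOHH2 24 h libraries added they were 1, 1 and 0 at 1, 3 and 6 h in DOHH2 and 1, 3 and 3 in the line differences. The 4 libraries of a contrast alone gave 1 at 1 h and 5 at 24 h in TMD8 and 1 at 6 h in DOHH2. For TMD8 at 1 h, limma-voom gave 1, and so did the fit without the TMD8 24 h libraries, an alternative chosen after seeing the data. For DOHH2 at 6 h, an adjusted p under 0.01 gave 1 and eBayes without trend gave 1. Testing 9000 features gave 1 and 3 in the line differences at 1 and 6 h. CD69 and SEMA7A were not among those features, so their calls are missing there and not lost.

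Leaving out each library in turn gave 0, 6 to 7, 7 and 5 to 9 members at 1, 3, 6 and 24 h in TMD8, lowest at 24 h without DMSO replicate 2, and 2, 2, 1 to 3 and 0 in DOHH2, lowest at 6 h without DMSO replicate 1. It gave 2 to 3, 4 to 7 and 4 to 6 in the line differences at 1, 3 and 6 h, 9 in vehicle between lines, 7 to 9 for TMD8 vehicle over time, 8 to 9 for its response over time, 5 to 6 for 24 minus 6 h and 5 to 6 for DOHH2 vehicle over time. The replicate block, which treats same-numbered samples as pairs, changed no count: 0, 8, 8 and 8 in TMD8 and 2, 2, 3 and 0 in DOHH2. For DOHH2 at 24 h the numbers may be crossed (correlation -0.476), and the crossed pairing also called 0 members. Scaling moved the median of all features by at most 0.042 in these contrasts and 0.055 in vehicle between lines. Low counts limit CD69 in TMD8 (12 to 103 reads) and SEMA7A in DOHH2 (0 to 13 reads).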
